A study of Mus musculus with 6 samples.

Results

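Transcripts for fatty acid (FA) oxidation were examined in libraries of female and male mice that are labelled as bone endothelial cells (BECs). Neutrophil and erythroid markers far exceeded endothelial markers in each of them (values below), so the label describes the isolation and not the make-up of the RNA. The group holds 40 genes of the 37991 in the count table, chosen by symbol as genes for the activation, transport and β-oxidation of FAs or for its regulation by PPARs. All 40 were found in the table. The rule goes by symbol and not by measured values, although the genes were proposed with earlier results of these data known. The 6 libraries came from c57/Bl6 mice aged 12 weeks, 3 from females and 3 from males, with no transgene, deletion or treatment named for either sex. By the labels, the cells were freshly isolated from the tibia, purified by expression of endomucin, an endothelial sialomucin, and polyA RNA was sequenced, whereas the paper describes tibiae and femurs and a total RNA kit. The labels do not say that each library came from a separate animal, so p-values measure only the spread between these libraries, which may in part be technical. Other ages and experiments of the study were not analysed here.

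A long-chain FA is first joined to coenzyme A by an acyl-CoA synthetase and then carried into mitochondria as an acylcarnitine, a step governed by the outer-membrane transferase CPT1. Inside, each turn of β-oxidation runs through a dehydrogenation, a hydration, another dehydrogenation and a thiolysis, which shortens the chain and releases acetyl-CoA, while the electron transfer flavoprotein passes electrons on to the respiratory chain. Peroxisomes run a similar cycle on very long and branched chains. Endothelial cells are known to use FA oxidation through CPT1A, among other ends for nucleotide synthesis during proliferation, and the question addressed here is whether transcript levels of this pathway differ between the female and male libraries labelled as BECs.

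Total counts lay between 47678806 and 58325745 per library, where 3 counts correspond to between 0.0477 and 0.0639 CPM (read counts relative to the library total, scaled by TMM, which adjusts library totals for composition). The endothelial label was checked with marker genes, and the data went against it as a description of the bulk of the RNA. The 20 endothelial markers summed to 414.8–619.9 CPM in females and 244.9–384.8 CPM in males, with 20 of 20 lower in males, none of them at 0 throughout, and Emcn, which encodes endomucin, at 5.35–10.5 and 3.09–6.73 CPM. The 18 neutrophil markers were far more abundant, at 19570–23920 CPM in females and 33160–45160 CPM in males, with 16 of 18 higher in males. Erythroid markers also lay higher in males (12340–17740 against 18650–27430 CPM, 9 of 11), and macrophage markers lower (5055–5324 against 3287–4468 CPM, 9 of 10). Adipocyte markers lay lower in males in sum (110.8–202.9 against 52.1–82.5 CPM, 4 of 7 tested genes), while sums of B cell, megakaryocyte and stromal markers overlapped between the sexes. The adipocyte sum was largely set by Adipoq (76.5–162.0 against 22.1–57.95 CPM), while Lipe overlapped (20.6–26.0 against 21.5–26.9 CPM). Of the 8 adipocyte markers, 5 had a mean below 1 CPM. None of these markers passed an adjusted p of 0.05 (edgeR), and no listed marker was at 0 in all libraries. Summed markers of several cell types were thus separated between the female and male libraries, without a test of the sums. Their part in each result below was not tested. In such bulk libraries, fewer cells of a type and less RNA per cell cannot be told apart.

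Fold changes are given below for 5 genes with an unadjusted p under 0.05 in edgeR, 3 of 38 higher in males (5.03% of all genes) and 2 lower (4.76% of all genes), shares near the background, and none passed adjustment. Of these, 4 had a promoter window in the RefSeq table (build GRCm38.p6), shown because they include the rate-limiting transferase Cpt1a and genes of the same route. Each line gives the 250 bases before the annotated start, 5′ to 3′ on the gene's strand, with capitals marking matches on either strand to AGGTCA (the nuclear receptor half-site to which PPAR dimers also bind), GGGCGG (the GC box) and CCAAT.
Cpt1a, chr19:3323051-3323300, plus strand: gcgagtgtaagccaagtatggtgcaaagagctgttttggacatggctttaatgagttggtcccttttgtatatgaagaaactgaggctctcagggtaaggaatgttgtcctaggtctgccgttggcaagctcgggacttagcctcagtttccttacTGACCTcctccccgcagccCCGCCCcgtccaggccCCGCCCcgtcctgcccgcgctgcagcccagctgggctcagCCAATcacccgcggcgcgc
Slc25a20, chr9:108661886-108662135, plus strand: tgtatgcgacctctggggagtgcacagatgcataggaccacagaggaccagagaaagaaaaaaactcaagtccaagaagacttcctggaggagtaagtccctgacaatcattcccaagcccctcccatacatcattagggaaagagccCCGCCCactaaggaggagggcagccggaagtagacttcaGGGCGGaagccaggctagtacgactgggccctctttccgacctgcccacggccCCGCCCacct
Slc27a4, chr2:29802384-29802633, plus strand: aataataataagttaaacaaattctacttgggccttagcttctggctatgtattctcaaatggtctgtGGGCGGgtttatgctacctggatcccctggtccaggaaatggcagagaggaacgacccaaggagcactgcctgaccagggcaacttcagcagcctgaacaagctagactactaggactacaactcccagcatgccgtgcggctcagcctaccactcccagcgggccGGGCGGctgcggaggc
Hadha, chr5:30154981-30155230, minus strand: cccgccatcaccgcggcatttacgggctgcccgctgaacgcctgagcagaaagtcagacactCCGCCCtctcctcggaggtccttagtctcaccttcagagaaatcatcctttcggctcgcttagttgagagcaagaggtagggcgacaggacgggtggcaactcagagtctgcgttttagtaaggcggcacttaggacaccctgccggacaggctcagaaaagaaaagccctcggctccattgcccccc
The Cpt1a window held 1 AGGTCA match on the reverse strand, 94 bases before the start, besides 2 GC boxes and a CCAAT box 19 bases before it. The other 3 windows held GC boxes only. Over the 34 of 40 genes with a window, AGGTCA was found in 6 (Acadm, Acadvl, Acsl6, Cpt1a, Cpt1c and Echs1), against 14% of all 32851 windows of that length. GGGCGG was found in 25 of the 34, against 32.7% of all windows, and CCAAT in 17, against 33.8%. The counts are of genes with a match in any of their windows, whereas the percentages are of single windows over all genes. They are therefore not shares of the same kind, and no enrichment was tested. Neither AGGTCANAGGTCA, the direct repeat read by PPAR and RXR, nor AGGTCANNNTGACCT, an oestrogen response element, matched in any of the 34, and they matched in 0.0335% and 0.0213% of all windows. The starts of Hadha and Hadhb, which encode both subunits of the mitochondrial trifunctional protein, lie 272 bases apart on opposite strands in this RefSeq table, whereas their longest extents overlap in GENCODE M39. These matches are descriptions of letters, and binding was not measured.

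Most of the pathway was readily detected. Of the 40 genes, 15 had a mean of 50 CPM or more over the 6 libraries, 17 lay between 10 and 50 CPM, 4 between 1 and 10 CPM and 4 below 1 CPM. The last were Cpt1b, Cpt1c, Acsl6 and Ppara. Cpt1b encodes the muscle form of CPT1 and Ppara the PPAR that drives FA oxidation in liver, and both were under the filter on low counts, so that 38 of 40 genes were tested. Together the 40 genes held 0.173, 0.176 and 0.176% of the counts in female libraries 1, 2 and 3, and 0.172, 0.160 and 0.166% in male libraries 1, 2 and 3. As TMM-scaled CPM these sums were 1606, 1850 and 1783 in females and 1641, 1595 and 1766 in males. The shares were separated by a narrow margin, and the scaled sums overlapped.

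**Figure D1:**
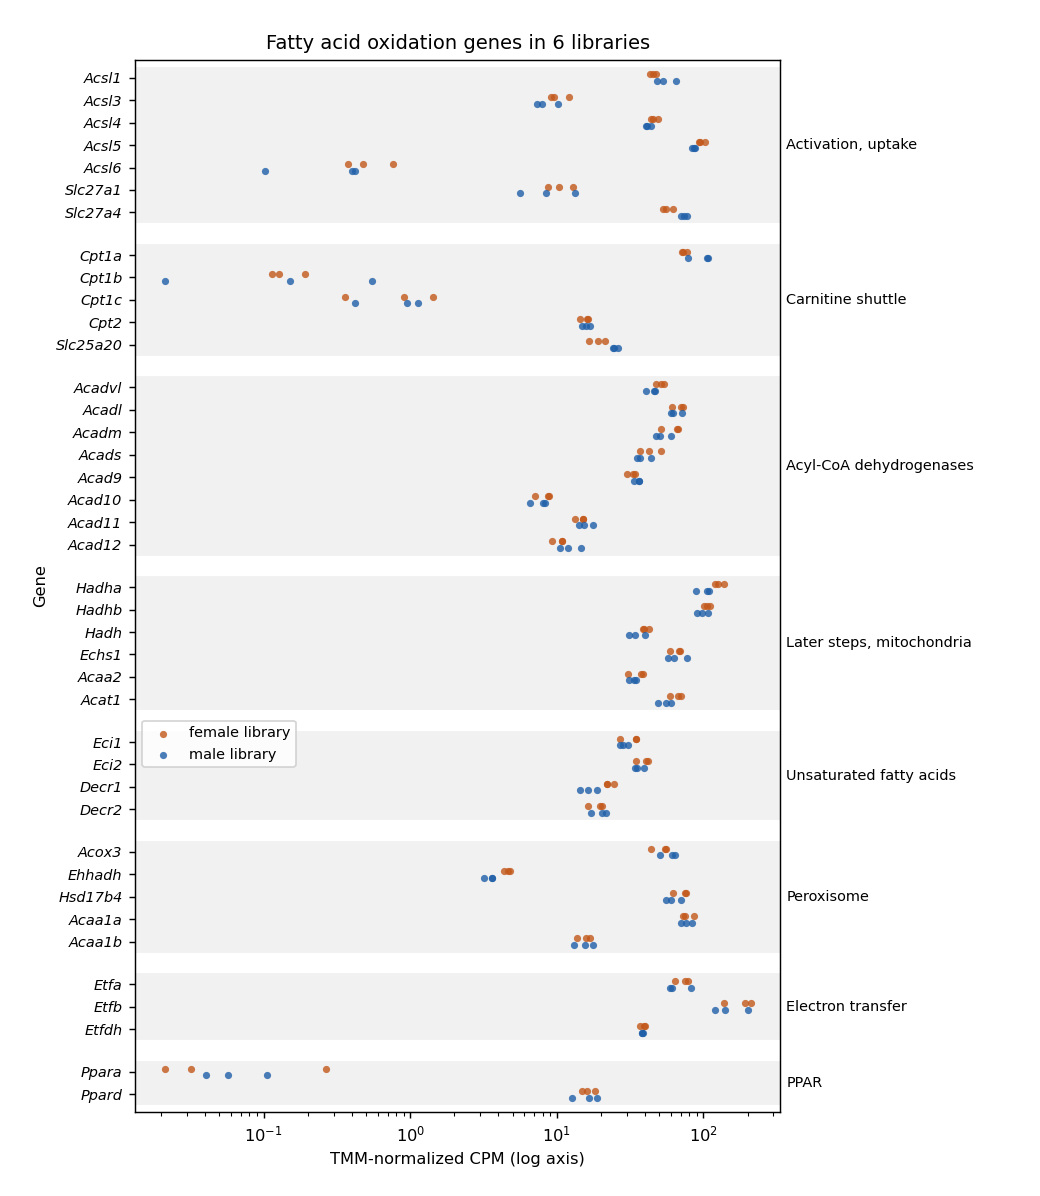
TMM-normalized CPM (log axis) of the 40 FA oxidation genes in 3 female (orange) and 3 male (blue) libraries, grouped by role, with 1 point per library. Apart from 4 genes below 1 CPM, levels spread between 3.20 CPM (Ehhadh) and 210.1 CPM (Etfb) in single libraries, and points of both sexes mostly lie together.

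Levels of different genes can be compared only per length. Per kilobase (kb) of annotated exons, with overlapping exons of all transcripts merged, Etfb was highest at 107 CPM per kb, followed by Acadl (17.0), Acsl5 (15.4), Acads (13.2), Hsd17b4 (12.5), Acadvl (12.1) and Hadha (12.0). The order depended on the length used. Per kb of the canonical transcript, a setting added after the data were seen, Etfb stayed highest at 187 CPM per kb and Hadhb (50.3), Acaa1a (42.9) and Etfa (40.3) came next, and only 5 of the 10 highest genes were shared. Ppara, Cpt1b, Acsl6 and Cpt1c were the 4 lowest by each length, at 0.0245, 0.0629, 0.0712 and 0.309 CPM per kb of canonical transcript.

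**Figure D2:**
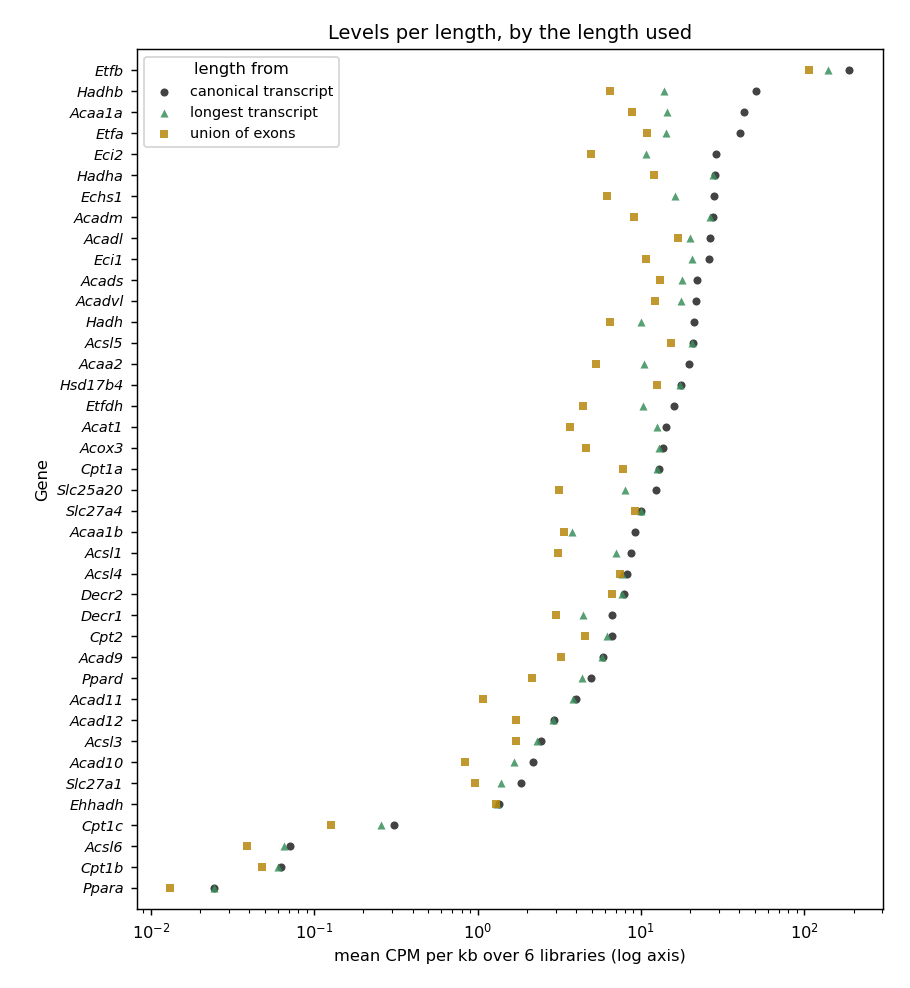
Mean CPM per kb over the 6 libraries (log axis) for each of the 40 genes, with the length taken from the canonical transcript (circles), the longest transcript (triangles) or the union of exons (squares). Etfb leads by each length, and the same 4 genes lie lowest.

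Between the sexes, no gene of the pathway passed an adjusted p of 0.05, with the smallest at 0.280 (Slc27a4, quasi-likelihood test of edgeR, adjusted by Benjamini-Hochberg over 19480 genes). Across all genes tested, 0.0411% passed in either direction. DESeq2 also called 0 of the 40, although at least Acsl6 was given no adjusted p there and could not be called. At an unadjusted p of 0.05 in edgeR, 3 of 38 genes lay higher in males (Cpt1a, Slc25a20 and Slc27a4), where 5.03% of all genes did, and 2 lay lower (Decr1 and Hadha), where 4.76% of all genes did. These counts rested on single libraries. The count of higher genes was 1 without male replicate 2. The count of lower genes was 4 without female replicate 1, 1 without female replicate 2, 1 without male replicate 2 and 7 without male replicate 3. Female and male libraries were fully separated for 4 genes higher in males (Acsl1, Cpt1a, Slc25a20 and Slc27a4), against 7.25% of all genes, and for 6 genes lower in males (Acadvl, Acsl4, Acsl5, Decr1, Ehhadh and Hadha), against 7.29% of all genes. In sign, 27 of 38 fitted differences were lower in males (71.1%, against 50.2% of all genes), and the median log2 fold change of males over females was -0.10, against -0.0012 over all genes, and -0.060 without female replicate 3. The genes share libraries, so this count has no test. Precision was good for most genes, with a median standard error of 0.138 on the log2 scale against 0.206 for all genes, and 95% intervals lay within 1.5-fold in both directions for 25 of 38 genes and within 2-fold for 36.

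**Figure D3:**
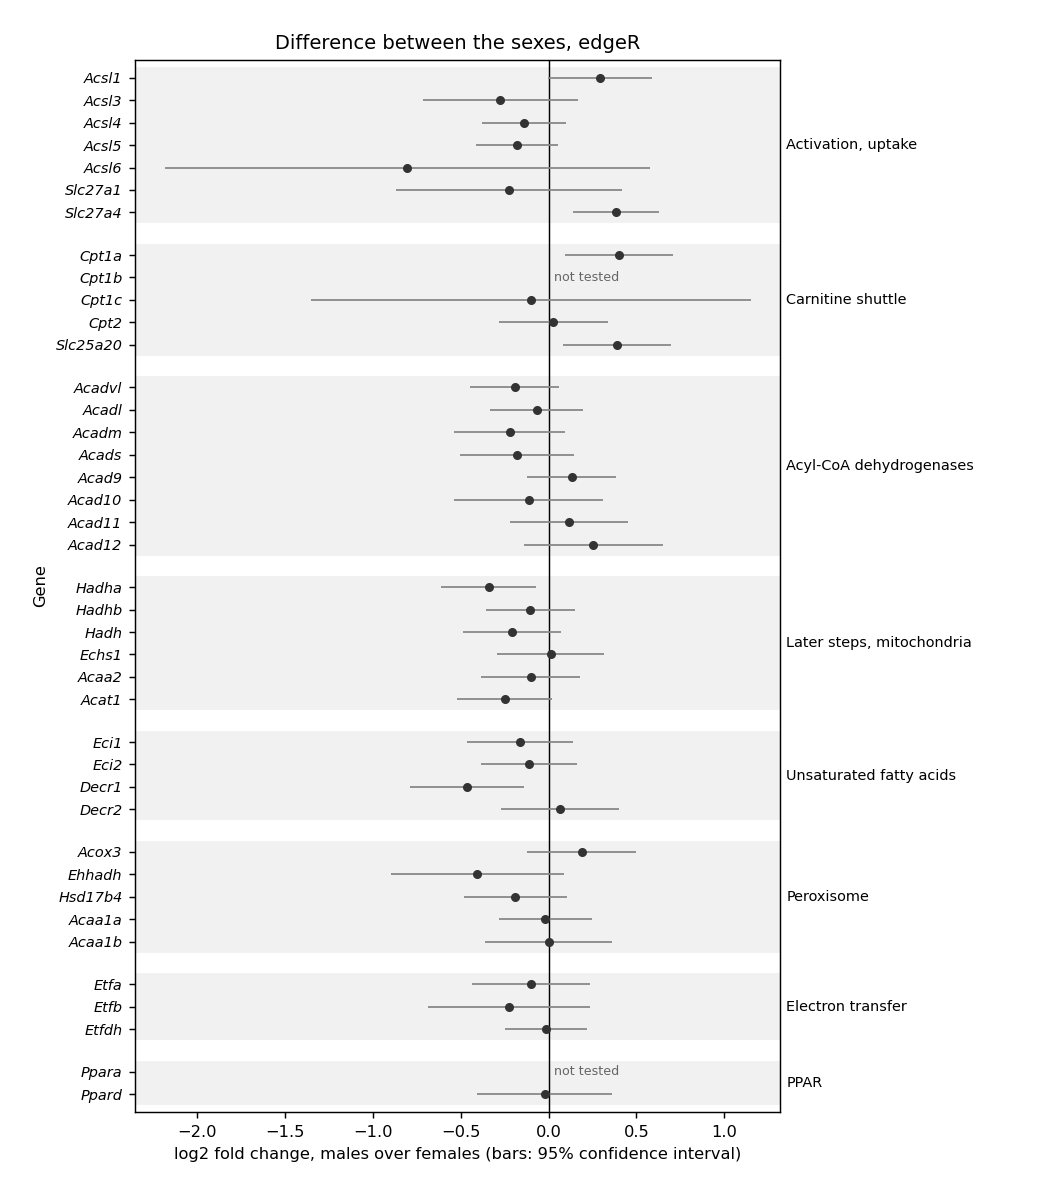
log2 fold change of males over females for each FA oxidation gene, with 95% confidence intervals from edgeR and genes grouped by role. Intervals of Slc27a4, Cpt1a and Slc25a20 lie above 0 and those of Decr1 and Hadha below it, and Cpt1b and Ppara were not tested.

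At the first step, activation and uptake, Slc27a4 stood higher in each male library. It encodes FATP4, a transport protein that also activates very long FAs. Slc27a4 (chr2:29692598-29710004, GRCm39) was measured at 52.8, 61.6 and 55.7 CPM in female libraries 1, 2 and 3 and at 77.3, 73.6 and 70.8 CPM in male libraries 1, 2 and 3. The lowest male library lay above the highest female library. Its log2 fold change was 0.38 ± 0.110 (SE, n = 3 per sex, edgeR adjusted p = 0.280), a 1.30-fold difference that did not pass. Its unadjusted p stayed under 0.05 in each alternative tried. Its relative Slc27a1, which encodes FATP1, overlapped at 8.76–12.9 CPM in females and 5.57–13.3 CPM in males.

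The long-chain acyl-CoA synthetases differed in level and in sign. Acsl5, found on mitochondria and endoplasmic reticulum, was the most abundant of the 5 and made up 48.0–54.5% of the family per kb of canonical transcript. Acsl1, the synthetase that prevails in heart, liver and fat, was measured at 44.99, 43.3 and 47.2 CPM in females and at 65.5, 52.6 and 47.9 CPM in males. Male library 3 lay just above the highest female library and the other male libraries well above it. Acsl5 was measured at 92.7, 95.4 and 102.7 CPM in females and at 86.7, 83.0 and 87.2 CPM in males, again without overlap but with males lower. The ratio of Acsl1 to Acsl5 CPM, formed after the values were seen and given without a test, was thus 0.485, 0.453 and 0.459 in females and 0.755, 0.634 and 0.549 in males. Acsl4, an X-linked synthetase that prefers arachidonic acid, lay at 44.1–49.3 CPM in females and 40.8–44.0 CPM in males, where only a small gap separated the sexes. Acsl3, which serves lipid droplets, overlapped (9.10–12.1 against 7.33–10.2 CPM), as did the brain-enriched Acsl6, at most 0.767 CPM. Of the 7 genes of this step, 2 had a higher and 5 a lower fitted level in males, none with an adjusted p under 0.05 (edgeR), and the median log2 fold change was -0.18.

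In the carnitine shuttle, Cpt1a supplied nearly all CPT1 transcripts. It made up 95.2–98.8% of the family per kb of canonical transcript, against at most 1.09% for Cpt1b and 4.42% for the neuronal Cpt1c. Cpt1a (chr19:3371853-3437996, GRCm39) was measured at 70.9, 76.9 and 72.1 CPM in females and at 107.5, 105.0 and 77.9 CPM in males. Male libraries 1 and 2 stood well above all females, whereas male library 3 lay close to the highest female library. Its log2 fold change was 0.40 ± 0.138 (SE, n = 3 per sex, edgeR adjusted p = 0.369), with a 95% interval from 0.10 to 0.71, and its unadjusted p passed 0.05 no longer without male replicate 1 or male replicate 2.

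Slc25a20 encodes the carnitine-acylcarnitine translocase of the inner mitochondrial membrane, the next protein on this route. Slc25a20 (chr9:108539250-108562760, GRCm39) was measured at 16.5, 21.3 and 19.2 CPM in females and at 24.0, 26.3 and 24.4 CPM in males. Each male library lay above each female library. The log2 fold change was 0.39 ± 0.138 (SE, n = 3 per sex, edgeR adjusted p = 0.383), with a 95% interval from 0.08 to 0.70, and its unadjusted p did not pass 0.05 without female replicate 1 or male replicate 2. Cpt2, which turns acylcarnitines back into acyl-CoA, lay at 14.4–16.3 CPM in females and 14.9–16.9 CPM in males. The sexes thus overlapped for Cpt2. Summed over the 5 shuttle genes, levels were 104.5, 113.1 and 109.1 CPM in females and 148.9, 147.7 and 119.3 CPM in males, without overlap and largely set by Cpt1a. Summed neutrophil markers (19570–23920 against 33160–45160 CPM) and erythroid markers (12340–17740 against 18650–27430 CPM) were also separated and higher in males. Their part in these values was not tested. Cpt1b had at most 0.548 CPM in any library, and 88.5% of its 40-base stretches also occur in a readthrough gene model, so its few counts are uncertain.

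**Figure D4:**
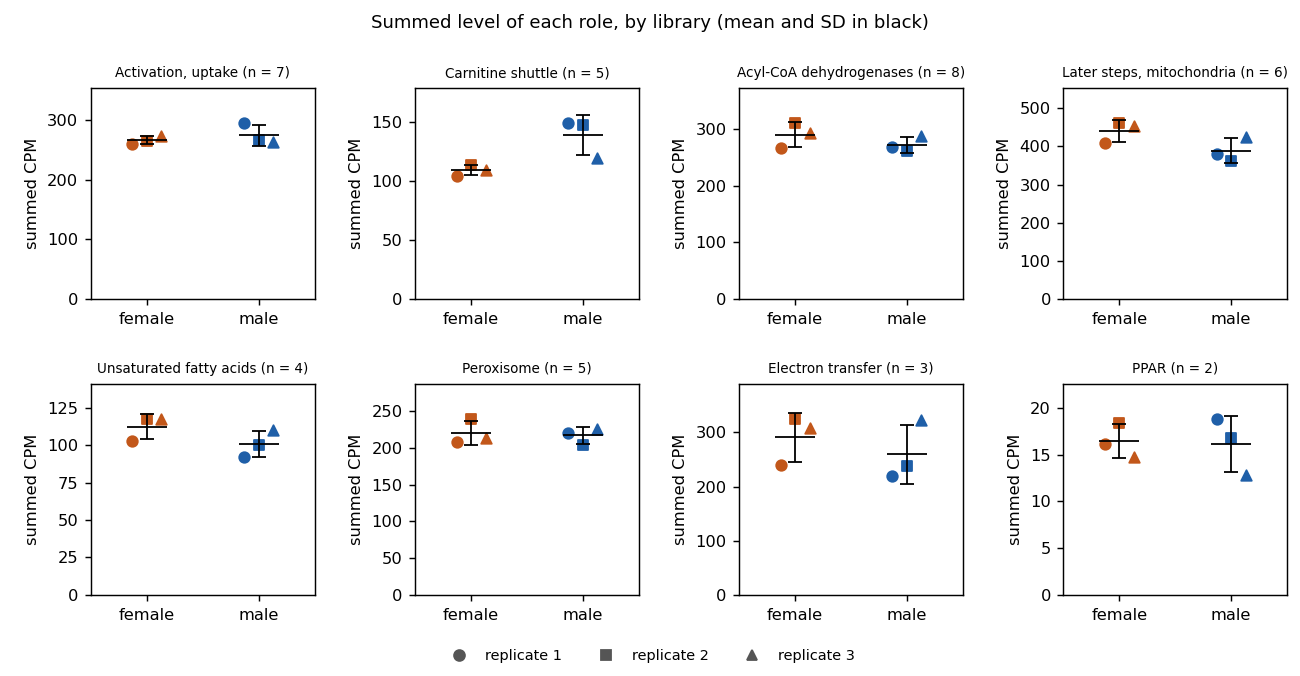
Summed TMM-normalized CPM of the genes of each role in the 3 female and 3 male libraries, with marker shape for the replicate number and mean and SD in black. The carnitine shuttle is separated, with females at 104.5–113.1 CPM and males at 119.3–148.9 CPM, while sums of the other roles overlap.

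The acyl-CoA dehydrogenases, which open each turn of the cycle for chains of different length, lay close together. Acadvl, for very long chains, was the only one of the 8 without overlap, at 47.7, 54.1 and 51.1 CPM in females and 46.0, 40.5 and 47.1 CPM in males. The gap between the sexes was small beside the spread within each. Acadl, for long chains, lay at 61.1–72.5 CPM in females and 60.5–71.3 CPM in males. Acadm, for medium chains, lay at 51.2–67.2 and 47.5–60.2 CPM. Acads, for short chains, lay at 36.9–51.7 and 35.4–43.6 CPM. All 3 overlapped between the sexes. Acad9, better known as an assembly factor of respiratory complex I, was at 30.3–34.2 and 33.7–36.6 CPM. Acad11 was at 13.2–15.1 and 14.1–17.5 CPM. Acad10 and Acad12, which are neighbours and share 24.8% and 24.2% of their 40-base stretches chiefly with each other, were at 7.14–8.91 and 6.54–8.28 CPM and at 9.33–10.9 and 10.5–14.7 CPM, so that reads could be split between them. In sign, 3 of the 8 were higher and 5 lower in males, with 0 at an adjusted or unadjusted p of 0.05 (edgeR).

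Of the later mitochondrial steps, Hadha lay lower in each male library. It encodes the α-subunit of the trifunctional protein, which carries the hydratase and long-chain 3-hydroxyacyl-CoA dehydrogenase activities. Hadha (chr5:30323302-30360187, GRCm39) was measured at 119.5, 138.8 and 126.1 CPM in females and at 109.2, 89.1 and 105.1 CPM in males. No male library reached the lowest female library. Its log2 fold change was -0.34 ± 0.123 (SE, n = 3 per sex, edgeR adjusted p = 0.391), with a 95% interval from -0.61 to -0.07, and without female replicate 2 or male replicate 2 its unadjusted p did not pass 0.05. Hadhb, the thiolase β-subunit of the same complex, overlapped at 100.9, 110.6 and 106.5 CPM in females and 89.9, 97.8 and 107.8 CPM in males. The ratio of Hadha to Hadhb CPM was 1.19, 1.26 and 1.18 in females and 1.21, 0.911 and 0.9746 in males, so male library 1 lay among the females. The 2 genes overlap on opposite strands in GENCODE M39, and the sources used here do not say whether counting used the strand. In addition, 63.6% of the 40-base stretches of Hadhb also occur in the pseudogene Hadhb-ps, which was listed at 12.6–20.4 CPM.

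**Figure D5:**
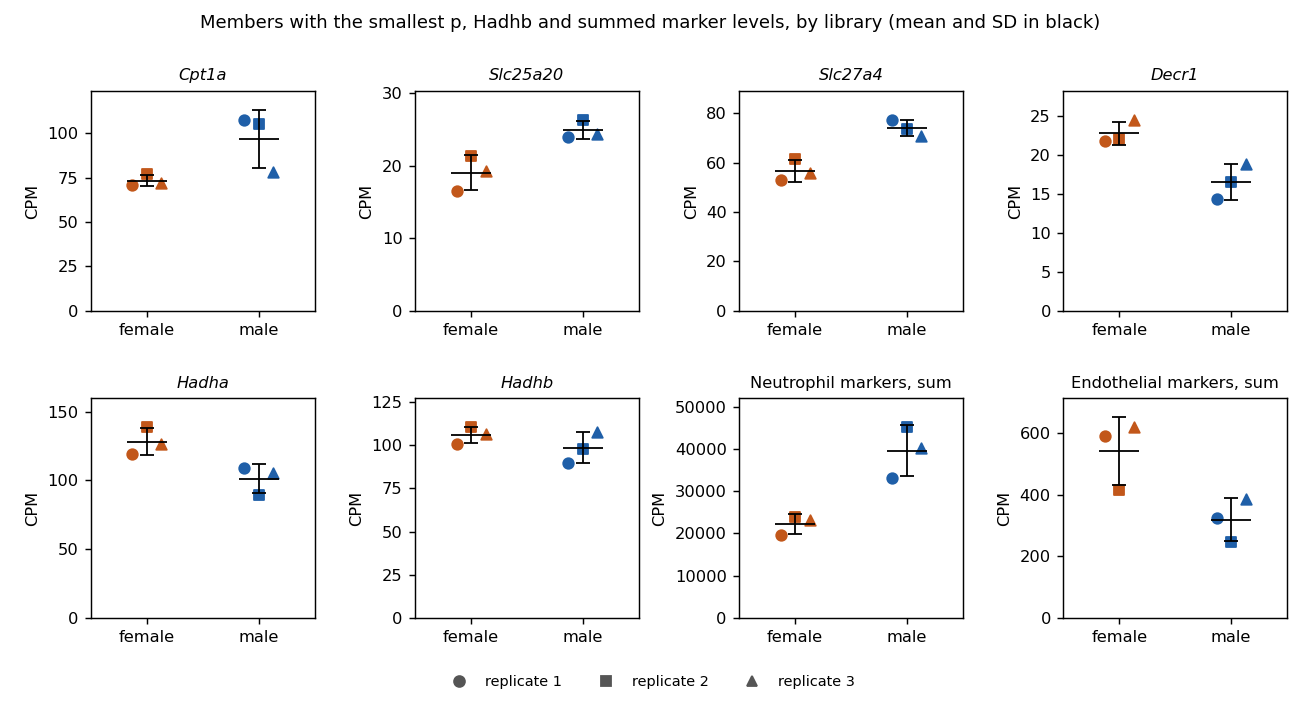
CPM in each library of the 5 genes with an unadjusted p under 0.05, of Hadhb as partner of Hadha, and of the summed neutrophil and endothelial markers, with 3 libraries per sex, marker shape for the replicate number and mean and SD in black. Hadha and Decr1 lie lower and Cpt1a, Slc25a20 and Slc27a4 higher in males, neutrophil markers are higher and endothelial markers lower in males, and Hadhb overlaps.

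The remaining enzymes of these steps overlapped between the sexes. Hadh, the dehydrogenase for medium and short chains, lay at 38.95–42.5 CPM in females and 30.9–39.9 CPM in males. Echs1, the short-chain hydratase, lay at 59.5–68.9 and 57.1–77.8 CPM. Acaa2, a mitochondrial thiolase, lay at 30.7–38.4 and 31.0–34.5 CPM. Acat1, which also acts in ketone body metabolism, lay at 59.1–70.7 and 49.3–60.1 CPM. Over the 6 genes, 1 was higher and 5 were lower in males in sign, with a median log2 fold change of -0.16.

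Among the auxiliary enzymes, which are needed for unsaturated FAs, Decr1 showed the widest gap between the sexes. It encodes the mitochondrial 2,4-dienoyl-CoA reductase. Decr1 (chr4:15912432-15945649, GRCm39) was measured at 21.8, 21.96 and 24.5 CPM in females and at 14.3, 16.4 and 18.8 CPM in males. The highest male library lay below the lowest female library. Its log2 fold change was -0.46 ± 0.146 (SE, n = 3 per sex, edgeR adjusted p = 0.333), a 1.38-fold higher level in females that did not pass, and its unadjusted p stayed under 0.05 in each alternative tried. Macrophage markers (5055–5324 against 3287–4468 CPM) and endothelial markers (414.8–619.9 against 244.9–384.8 CPM) were lower in males too, and their part in the values of Decr1 and Hadha was not tested. The peroxisomal reductase Decr2 overlapped at 16.4–20.4 CPM in females and 17.1–21.7 CPM in males. Eci1 and Eci2, the enoyl-CoA isomerases, also overlapped, at 26.8–34.6 and 26.9–30.5 CPM and at 34.4–41.8 and 34.1–39.2 CPM. In this group 1 gene was higher and 3 were lower in males in sign.

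In the peroxisomal cycle, Ehhadh stood apart. This bifunctional enzyme was measured at 4.82, 4.62 and 4.37 CPM in females and at 3.61, 3.61 and 3.20 CPM in males. The sexes did not overlap, at levels where counting error is larger than for the other peroxisomal genes, and the unadjusted p of the difference did not pass 0.05 (edgeR, adjusted p = 0.596). Acox3, an oxidase for branched chains, overlapped at 43.6–55.9 CPM in females and 50.5–64.2 CPM in males. Hsd17b4, the other bifunctional enzyme, was at 61.9–75.6 and 55.6–70.8 CPM. The thiolases Acaa1a and Acaa1b were at 73.1–86.3 and 70.8–84.0 CPM and at 13.7–16.8 and 13.1–17.6 CPM. They share 37.6% and 40.2% of their 40-base stretches with each other, so that the split of reads between them is uncertain, although neither differed beyond the spread of its libraries.

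The electron transfer flavoprotein genes varied among libraries more than between the sexes. Etfb, the β-subunit, was measured at 139.2, 210.1 and 191.1 CPM in females and at 119.7, 141.2 and 201.0 CPM in males. Etfa, the α-subunit, followed with 63.6, 74.8 and 78.2 CPM in females and 60.8, 58.8 and 82.4 CPM in males. Male library 3 was the highest of the males for both subunits and female library 1 the lowest of the females. Etfdh, which passes the electrons to ubiquinone, was nearly constant at 37.1–40.2 CPM in females and 38.1–38.7 CPM in males. Of the 40-base stretches of Etfb, 67.7% also occur in Etfbl, a related gene that was not matched to the counts. All 3 genes had a lower fitted level in males, with adjusted p of at least 0.765 (edgeR).

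Of the PPARs in the group, Ppard, the widely expressed form, was at 14.7–18.1 CPM in females and 12.8–18.8 CPM in males, without a difference beyond the spread. Ppara reached at most 0.265 CPM, in female library 2, and lay between 0.0213 and 0.105 CPM in the others, where 3 counts correspond to 0.0477–0.0639 CPM.

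Genes around the pathway were taken from lists of 65 further genes, of which 61 were tested and 0 passed an adjusted p of 0.05 (edgeR). Slc27a6 passed in DESeq2 (adjusted p = 2.02e-04), and in edgeR with no filter on low counts (0.0265) and without male replicate 3 (0.0330). At an unadjusted p of 0.05, 1 lay higher and 10 lay lower in males, against 5.03% and 4.76% of all genes. Of these, only Pparg, Cd36 and Slc27a6, all lower in males, stayed under that level without male replicate 2. Of the 16 peroxisomal and carnitine partners, such as Crat, Crot and the Abcd transporters, 8 were higher and 8 lower in sign, with 0 at an unadjusted p of 0.05. Of the 15 regulators, 5 were higher and 10 lower. The adipogenic receptor Pparg was measured at 66.2, 79.4 and 83.0 CPM in females and 51.1, 49.1 and 66.0 CPM in males, with male library 3 just under female library 1. Its dimer partner Rxra was measured at 88.5, 111.0 and 108.1 CPM in females and 74.3, 69.8 and 90.3 CPM in males, and overlapped. The log2 fold change was -0.46 ± 0.145 for Pparg (SE, edgeR adjusted p = 0.334) and -0.39 ± 0.138 for Rxra (SE, edgeR adjusted p = 0.383). With single libraries left out, the unadjusted p of Rxra in edgeR stayed under 0.05 for female library 1 and male library 3 alone. Ppargc1a, the coactivator PGC-1α, Acacb, which makes the malonyl-CoA that inhibits CPT1, and Mlycd, which removes it, did not reach an unadjusted p of 0.05.

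Among 10 tested PPAR target genes outside the pathway list, 6 were higher and 4 lower in males in sign. At an unadjusted p of 0.05, 2 were lower, against 4.76% of all genes, and both were carriers of FAs. Cd36, the FA translocase, was measured at 49.7, 44.8 and 66.1 CPM in females and at 36.6, 28.0 and 42.1 CPM in males, without overlap, with a log2 fold change of -0.59 ± 0.182 (SE, edgeR adjusted p = 0.320). Fabp4, the FA binding protein of capillaries and adipocytes, was measured at 154.2, 187.5 and 330.1 CPM in females and at 86.6, 84.2 and 187.9 CPM in males. Here male library 3 lay above 2 of the female libraries. The log2 fold change was -0.91 ± 0.370 (SE, edgeR adjusted p = 0.474). The Fabp4 value rested on single libraries, at -0.52 without female replicate 3 and -1.39 without male replicate 3, and its unadjusted p exceeded 0.05 without that female library, without male library 1, without male library 2, with low counts kept and in DESeq2. Summed macrophage markers (5055–5324 against 3287–4468 CPM) and endothelial markers (414.8–619.9 against 244.9–384.8 CPM) were lower in males in the same libraries. So were summed adipocyte markers (110.8–202.9 against 52.1–82.5 CPM), a sum largely set by Adipoq. The part of these markers in the values of Cd36 and Fabp4 was not tested. The mitochondrial genes Pdk4, Ucp2 and Ucp3 and the lipid droplet gene Plin2 did not reach an unadjusted p of 0.05.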

How the data were processed

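RNA of cells labelled as BECs from 12-weeks old mice was measured in 6 libraries, 3 per sex, which the labels assign. The authors deposited whole-number read counts per Ensembl gene, not normalized and not pooled. The sources differ on how these counts were made. The submitters' processing notes name TopHat2 2.0.11, featureCounts and the builds mm9 and NCBIM37, and the labels a directional kit with 40-nucleotide reads, whereas the paper describes STAR on GRCm39, featureCounts, longer reads and a total RNA kit. Annotation and strand setting are not given in the sources used here. The highest Ensembl number in the table is 93789, and 47216 genes of GENCODE M39 have higher ones. Symbols, positions and lengths were taken from GENCODE M39 (GRCm39), to which 31073 of 37991 identifiers matched, and promoter windows from RefSeq (GRCm38.p6).

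Counts were filtered with filterByExpr by sex, scaled by TMM and tested in edgeR 4.0.16 (R 4.3.3) with the robust quasi-likelihood test, males over females, with no covariate and Benjamini-Hochberg adjustment over all genes tested. The scripts were tested on simulated data. Alternatives were DESeq2 1.42.0 (Wald test, and its size factors in edgeR), library totals, no filter or at least 10 counts in every library, omission of genes over 1% of a library, no robust estimation, the replicate number as a block, and each library left out in turn. Each gene of the pathway is named with its level. Fold changes are given for those with an adjusted p under 0.05 with or without the block, those with an unadjusted p under 0.05, and Cpt1a. From related lists, up to 4 genes each with an unadjusted p under 0.05 are named, and Fabp4. Values of Acsl1, Acsl5, Ehhadh and of ratios were singled out after they were seen. Shared sequence was counted as 40-base stretches of the canonical transcript also found in transcripts of another gene. The genes and all lists were chosen with earlier results of these data known.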

Additional observations from a re-analysis of the deposited data

How the results depend on the processing

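No gene of the pathway passed an adjusted p of 0.05 under any of the 14 alternatives to edgeR's main test, in which the smallest adjusted p of these genes lay between 0.0738 (without male replicate 3) and 0.918 (without male replicate 2). All genes called numbered 8, against 14 with library totals alone, 98 with no filter on low counts, 359 with DESeq2 and 96 without male replicate 3. The 5 genes given with a fold change kept their sign throughout, at 0.32 to 0.53 for Cpt1a, 0.31 to 0.48 for Slc25a20, 0.34 to 0.45 for Slc27a4, -0.57 to -0.37 for Decr1 and -0.40 to -0.26 for Hadha (log2). With each library left out in turn, 1 to 4 genes were higher and 1 to 7 lower in males at an unadjusted p of 0.05, and the median log2 fold change lay between -0.13 and -0.060. The share lower in males was 61.5% to 73.7%.

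With genes over 1% of a library left out of the total, the summed level was 1913 CPM in females and 1833 CPM in males, since the same counts are divided by a smaller total, against 1746 and 1667 CPM. Leaving out libraries gave 1695 to 1817 and 1618 to 1703 CPM. Per kb of canonical transcript, 5 of the 10 genes highest per kb of merged exons were retained, against 8 with the longest transcript.

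With the replicate block, 428 of all genes were called, 0 of them in the pathway, with 4 higher and 3 lower at an unadjusted p of 0.05, and Cd36 (adjusted p = 0.0144) and Fabp4 (adjusted p = 0.00151) passed in edgeR, whereas without the block neither did in edgeR (0.320 and 0.474) or in DESeq2 (0.108 and 0.569). Deviations of same-numbered libraries correlated at 0.194, 0.0403 and 0.298, against -0.274 to 0.131 for differently numbered libraries. Numbers 1 and 3 thus lay above each differently numbered pair, and number 2 did not. The same-numbered values were not all over 0.1 and the labels state no pairing, so the numbers were not taken as pairs. Whether they mark a shared batch was not tested. Slc27a6 passed in edgeR with no filter on low counts (adjusted p = 0.0265), with the block (0.0133) and without male replicate 3 (0.0330), and in DESeq2 (2.02e-04), but not in the main test (0.108). The cause was not tested. Cpt1b and Ppara were left out by the main filter on low counts and were not called without it in edgeR, and the widest standard errors were those of Acsl6 (0.622) and Cpt1c (0.563), both under 1 CPM in mean.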

Other observations

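Of 9 tested dehydrogenases that feed the electron transfer flavoprotein and enzymes of propionyl-CoA, 7 were lower and 2 higher in sign, and 4 lay lower at an unadjusted p of 0.05, against 4.76% of all genes, while 0 passed an adjusted p of 0.05 (edgeR). Without male replicate 2 none of Pccb, Pcca, Sardh and Ivd stayed under an unadjusted p of 0.05, and without female replicate 2 Sardh alone did, while the log2 fold changes kept their sign, at -0.34 for Pccb, -0.36 for Pcca, -0.61 for Sardh and -0.24 for Ivd without male replicate 2. Ivd was also lost in DESeq2 and under each alternative scaling. Macrophage markers (5055–5324 against 3287–4468 CPM) and endothelial markers (414.8–619.9 against 244.9–384.8 CPM) were lower in males too, and their part in these values was not tested. Pccb and Pcca encode both subunits of propionyl-CoA carboxylase. Pccb was measured at 34.7, 44.6 and 39.4 CPM in females and at 30.3, 25.9 and 32.3 CPM in males, and Pcca at 20.9, 26.3 and 24.1 CPM in females and at 18.6, 15.6 and 18.4 CPM in males. Neither overlapped between the sexes. The log2 fold change was -0.42 ± 0.137 for Pccb (SE, edgeR adjusted p = 0.340) and -0.44 ± 0.144 for Pcca (SE, edgeR adjusted p = 0.343). Sarcosine dehydrogenase (Sardh) was lower by the same measure at -0.77 ± 0.307 (SE, edgeR adjusted p = 0.449) and isovaleryl-CoA dehydrogenase (Ivd) at -0.27 ± 0.119 (SE, edgeR adjusted p = 0.508).

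Among 11 other tested acyl-CoA synthetases and FA transport proteins, 6 were higher and 5 lower in males in sign. Slc27a6, a FATP family member, was measured at 2.96, 1.51 and 1.62 CPM in females and at 0.209, 0.142 and 0.569 CPM in males, a low level without overlap, with a log2 fold change of -2.73 ± 0.547 (SE, edgeR adjusted p = 0.108, but 2.02e-04 in DESeq2). Acss3, a mitochondrial short-chain synthetase, was higher in each male library, at 0.875, 0.605 and 0.937 CPM in females and 1.84, 3.86 and 1.22 CPM in males (log2 fold change 1.52 ± 0.4504 SE, edgeR adjusted p = 0.300). Without male replicate 2 its log2 fold change was 0.93. Acsf2, a synthetase for medium chains, was measured at 74.9, 83.1 and 66.6 CPM in females and 64.2, 45.5 and 58.2 CPM in males (log2 fold change -0.42 ± 0.147 SE, edgeR adjusted p = 0.381).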
